A study of Mus musculus with 4 samples.

Results

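The genes described here encode the enzymes and helpers that cut proteins in the lysosome for presentation on MHC class II. They were chosen by name: the cathepsins Ctss, Ctsl, Ctsb, Ctsh, Ctsz, Ctsc and Ctsd, the legumain gene Lgmn, the thiol reductase gene Ifi30 and the inhibitor gene Cst3. A gene entered if a probe set (the group of array probes that reads one gene) was annotated to it alone, and where several qualified, the one with the highest mean was to be used. All 10 genes entered, each with 1 probe set, out of 19938 named genes. The RNA came from CCR6+ group 3 innate lymphoid cells (ILC3) of naive C57BL/6 mice, taken from the mesenteric lymph node and sorted by the markers CD127+ CD90.2+ CCR6+ ST2-, and was hybridised as 4 biotin-labelled total RNA samples, numbered here as arrays 1 to 4. There was 1 group, with no other genotype, treatment or cell type, so nothing was compared between conditions. The labels give no age of the mice, do not say whether samples came from separate animals or pools, and name no lineage markers in the gate beyond those listed.

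Proteins taken up by a cell are unfolded and cut in endosomes and lysosomes, where the pH is low. The invariant chain, which blocks the groove of new MHC class II molecules, is trimmed stepwise there by legumain, aspartic and cysteine proteases until a short fragment is left for exchange with peptides. Cysteine cathepsins of the papain family either cut within a chain or nibble at its ends, and cystatins hold them in check. ILC3 of lymph node and gut are known to carry MHC class II.

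Levels are log2 values made by RMA (robust multi-array average), so 1 unit is a doubling of the signal. Probe sets bind with different strength, so the main call set a level against background and members were not ranked against each other. The count against genes of other organs and the medians, given below, do set different genes side by side and carry this limit. A gene was called above background when its mean exceeded nearly all of 1241 genes for receptors of smell, pheromones, trace amines and bitter taste, at a one-sided detection p adjusted over all named genes (Benjamini-Hochberg) below 0.05. The lowest mean called was 6.37. The median of all probe sets lay between 5.99 and 6.03 on the 4 arrays, and the number of arrays limits the precision. The label of the cells held for the markers measured: 9 of 9 ILC3 markers were above background, among them Il7r at 12.56 ± 0.06 (SD, n = 4, as for all means that follow), Id2 at 11.54 ± 0.12, Il2ra at 11.46 ± 0.09 and Thy1 at 11.36 ± 0.15. All 11 B cell markers measured were also above background, and their mean was 8.76 on array 1, 7.88 on array 2, 9.04 on array 3 and 7.71 on array 4. In a bulk sample, fewer cells of a type and less RNA per cell cannot be told apart.

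In the CCR6+ ILC3 samples 10 of 10 members were called above background, against 46.2% of all named genes and 6 of 15 genes typical of other organs. The median level of the members was 8.48, that of all named genes 6.16 and that of genes above background 7.73. Because genes of other organs can also pass this call, a stricter count was made of genes that exceeded, on every array, each of 15 genes typical of other organs (the organ controls). By that count 5 of 10 members passed (Ctss, Ctsd, Ctsc, Ifi30 and Cst3), against 16.1% of all named genes. The bar was set by Mbp, the myelin basic protein gene, at 7.98 ± 0.06, a gene with a transcript form known from lymphoid cells. With Mbp left out, a choice made after the data were seen, Ctsb and Ctsz passed too, making 7 of 10 against 24.7% of all named genes. Ctsl, Ctsh and Lgmn did not exceed all organ controls on every array by either count, although Ctsh did on array 3, at 7.99 against 7.96 for Mbp. With Mbp left out, Ctsh also exceeded the rest on array 1, at 7.55 against at most 7.42. Ctsl then did so on array 2, at 7.51 against at most 7.40, and Lgmn on array 3, at 7.40 against at most 7.31.

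**Figure D1:**
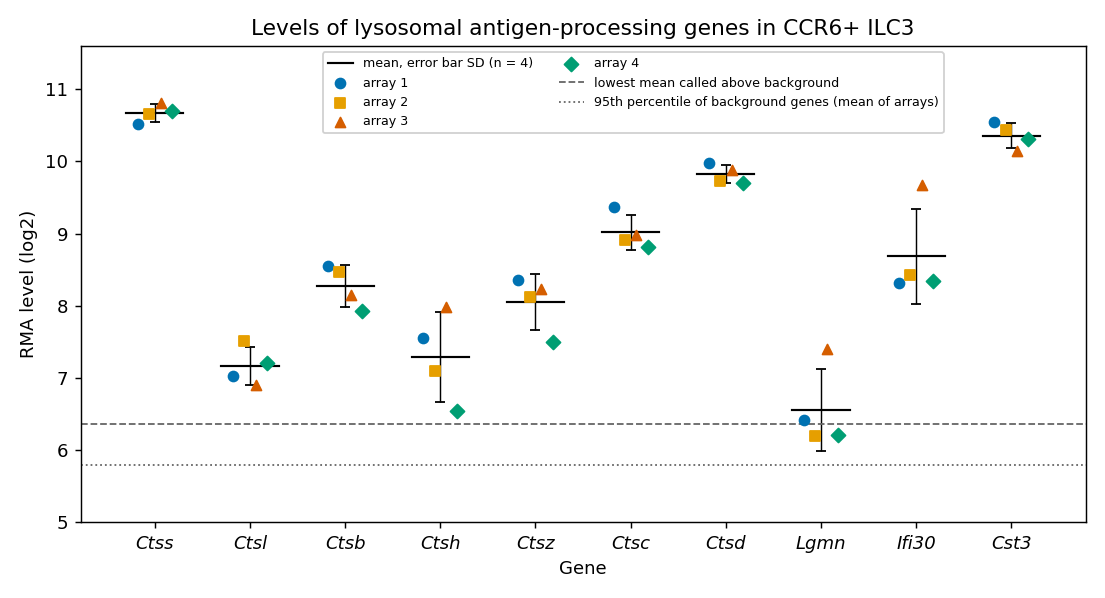
RMA levels (log2) of the 10 members on each array, with the mean as a line and the SD over the 4 arrays as bars; symbols mark arrays. Levels of different genes are read by different probe sets and are not amounts of RNA to be ranked; Lgmn lay near the lowest mean called (dashed line, 6.37), and Ifi30 and Lgmn were highest on array 3.

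Among the endopeptidases of the papain family, Ctss encodes cathepsin S, which removes the last parts of the invariant chain in B cells and dendritic cells. It was at 10.51, 10.65, 10.81 and 10.70 on arrays 1 to 4, a mean of 10.67 ± 0.12 with an adjusted detection p of 0.0108. The arrays spanned 0.30 log2 units, a 1.23-fold range, and no array stood apart. Ctsl encodes cathepsin L, known to do the same step in thymic epithelium. Its levels were 7.03, 7.51, 6.91 and 7.21, a mean of 7.16 ± 0.26 with an adjusted detection p of 0.0220. Array 2 was the highest and array 3 the lowest, so Ctsl ran opposite to several members on array 3. Ctsb encodes cathepsin B, which both cuts within chains and removes dipeptides from the C-terminal end. It was at 8.55, 8.46, 8.14 and 7.92, a mean of 8.27 ± 0.29 with an adjusted detection p of 0.0142. Arrays 1 and 2 lay above arrays 3 and 4, within a 1.54-fold range.

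Exopeptidases, which trim the ends of a chain, were represented by 3 genes. Ctsh encodes cathepsin H, an aminopeptidase. It was at 7.55, 7.09, 7.99 and 6.54 on arrays 1 to 4, a mean of 7.29 ± 0.62 with an adjusted detection p of 0.0220. This was the widest range of the set, 1.45 log2 units or 2.73-fold, with the arrays well spread rather than 1 standing apart. The order of the arrays for Ctsh, from high to low 3, 1, 2 and 4, was also that of the B cell list means, and the part of B cell RNA in it was not tested. Ctsz encodes cathepsin Z (also called X), a carboxypeptidase. It was at 8.36, 8.12, 8.23 and 7.49, a mean of 8.05 ± 0.38 with an adjusted detection p of 0.0142, and array 4 was the lowest. Ctsc encodes dipeptidyl peptidase 1, which trims dipeptides from the N-terminal end and is known for activating granzymes. Its levels were 9.37, 8.91, 8.97 and 8.81, a mean of 9.02 ± 0.24 with an adjusted detection p of 0.0142, with array 1 above the other 3.

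Ctsd and Lgmn encode proteases outside the papain family. Ctsd encodes cathepsin D, the main aspartic protease of lysosomes. It was at 9.97, 9.73, 9.88 and 9.71 on arrays 1 to 4, a mean of 9.82 ± 0.13 with an adjusted detection p of 0.0108. Its 1.204-fold range was the narrowest of the 10 members. Lgmn encodes legumain, an asparaginyl endopeptidase that can start the breakdown of the invariant chain. It was at 6.41, 6.20, 7.40 and 6.21, a mean of 6.56 ± 0.57 with an adjusted detection p of 0.0411. Array 3 alone was high, at 1.99 times the next highest array. Without array 3 the mean was 6.27 and the adjusted detection p 0.0533, so the call rested on that array. Without it 9 of 10 members were called, as were 8835 of the 19938 named genes. On each array, however, Lgmn lay at least 0.37 log2 units above the 95th percentile of the background genes, and limma's moderated test against that percentile called it with an adjusted p of 0.0147. By these other calls 10 of 10 members also passed, against 54.4% of all named genes for the percentile on every array and 54.0% for limma's test. Of the 15 organ controls, 10 passed the percentile and 9 limma's test. Krt5, an organ control named after its values were seen, was close to Lgmn, at 6.12, 6.18, 7.31 and 6.23 on arrays 1 to 4. Its adjusted detection p was 0.0447 and its adjusted p by limma's test 0.0226.

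The helpers of the proteases were both above background. Ifi30 encodes GILT, a thiol reductase that opens disulfide bonds of antigens in the lysosome and is known to be induced by interferon gamma. It was at 8.31, 8.42, 9.67 and 8.35 on arrays 1 to 4, a mean of 8.69 ± 0.66 with an adjusted detection p of 0.0142. Arrays 1, 2 and 4 lay within 0.11 log2 units of each other and array 3 was 2.39 times the next highest. Without array 3 the mean was 8.36 and the gene was still called, with an adjusted detection p of 0.0145. Cst3 encodes cystatin C, a secreted inhibitor of cysteine cathepsins. Its levels were 10.54, 10.43, 10.14 and 10.31, a mean of 10.36 ± 0.17 with an adjusted detection p of 0.0108. Here array 3 was the lowest, while Ctss, which cystatin C can inhibit, was highest on that array.

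The members differed in how far the samples agreed. The median SD of the 10 members was 0.275 log2 units, against 0.168 for all 9203 genes above background, and 8 of the 10 lay above the latter value. Ctss at 0.123 and Ctsd at 0.127 were below it. At the other end, Ifi30, Ctsh and Lgmn had SDs at the 98.1, 97.8 and 97.3 percentiles of genes above background, and these 3 members spanned more than 1 log2 unit. Without array 3 the SD of Ifi30 was 0.0556 and that of Lgmn 0.119, while Ctsh was still at 0.505. The median SD of the members was then 0.195, against 0.153 for genes above background on the 3 arrays. The deposited values can repeat to all printed digits between arrays, as for 10.9% of genes above background, but did so for 0 of the 10 members.

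**Figure D2:**
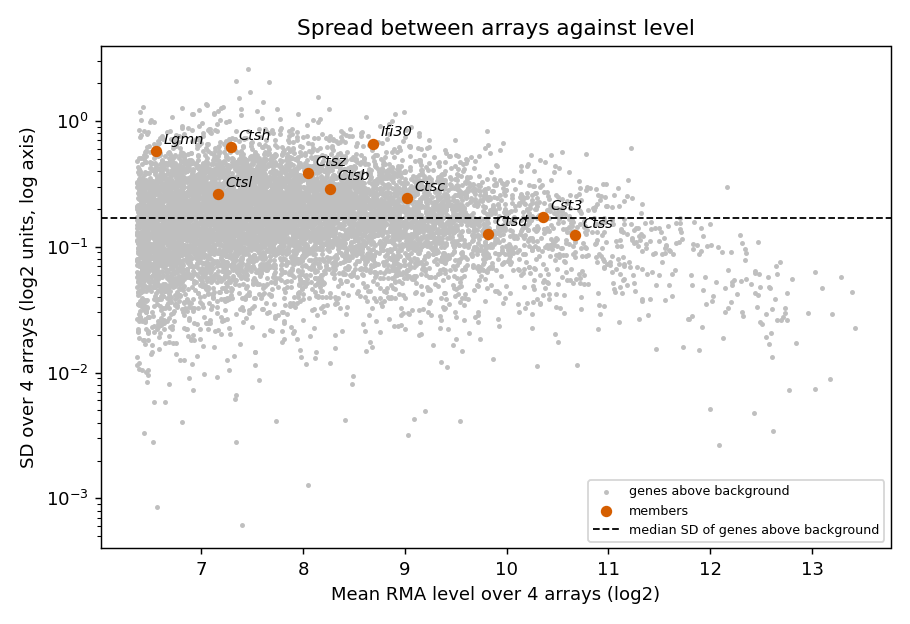
SD over the 4 arrays (log2 units, log axis) against the mean RMA level (log2) for the 9203 genes above background (grey) and the 10 members (orange). Ifi30, Ctsh and Lgmn lie near the upper edge of the cloud, and Ctss and Ctsd lie below the median SD of 0.168 (dashed line).

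Array 3 had the highest mean over the members and array 4 the lowest. Of the 10 members, 4 were highest on array 3 (Ctss, Ctsh, Lgmn and Ifi30), 5 on array 1 (Ctsb, Ctsz, Ctsc, Ctsd and Cst3) and 1 on array 2 (Ctsl). None was highest on array 4, which was the lowest array for 5 members. Among all genes above background, 25.0% were highest on array 3, 26.4% on array 1 and 22.6% on array 4, and 27.1% were lowest on array 4. The mean over the 10 members was 8.66, 8.55, 8.82 and 8.33 on arrays 1 to 4. Without Ifi30 and Lgmn it was 8.98, 8.86, 8.88 and 8.59, so that array 1 was the highest. A gap of more than 0.5 log2 units between array 3 and each other array was seen for 2 of 10 members, Ifi30 and Lgmn, against 1.99% of genes above background, a limit chosen after the values were seen.

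**Figure D3:**
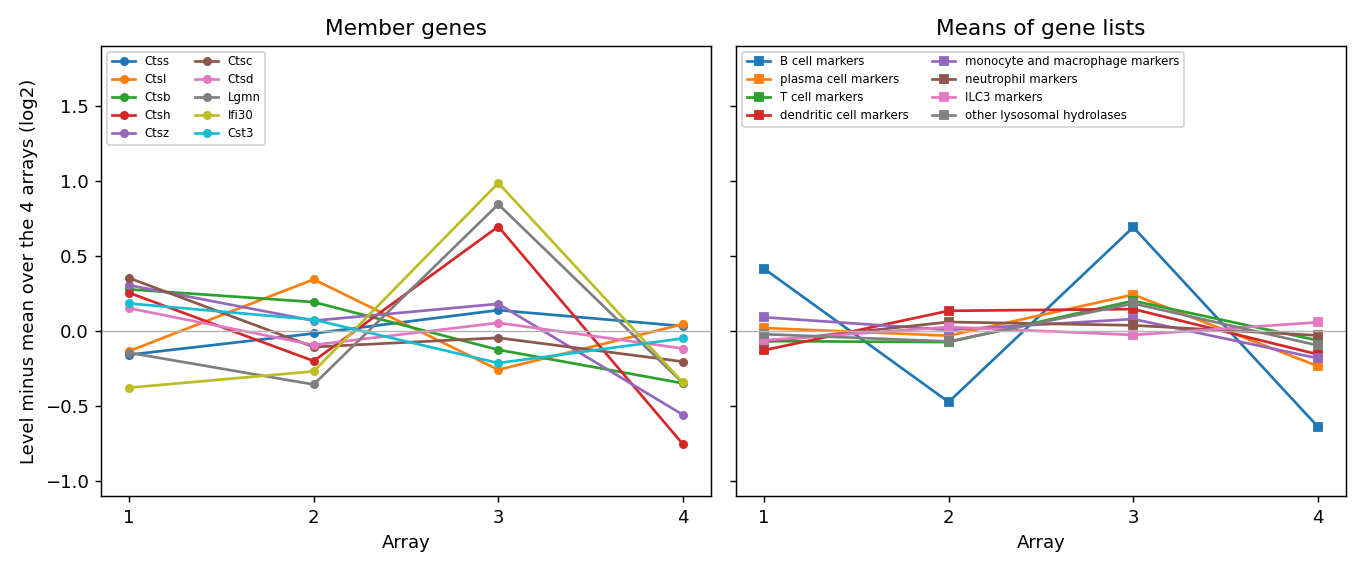
Log2 level minus the mean over the 4 arrays for each member (left) and for the means of marker and hydrolase lists (right). Lines join the values of 1 gene or list, and the arrays have no order; on array 3 Ifi30 was 0.99, Lgmn 0.85, Ctsh 0.70 and the B cell list 0.69 above the mean.

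Markers of other cells also differed between the arrays. B cell markers were called in 11 of 11 cases, with Cd79b at 9.84 ± 0.55, Pou2af1 at 9.19 ± 0.35, Cd79a at 8.84 ± 0.78 and Bank1 at 8.76 ± 0.91, and 9 of the 11 were highest on array 3. On array 1, relative to the mean over the 4 arrays, the B cell list was at 0.42, Ifi30 at -0.38 and Lgmn at -0.14 log2 units. The part of B cell RNA in Ifi30 and Lgmn was not tested. Plasma cell markers were called in 3 of 8 cases, with Xbp1 at 8.48 ± 0.09, Jchain at 8.25 ± 1.25 and Mzb1 at 6.68 ± 0.31, while Sdc1 at 6.27 ± 0.30 and Derl3 at 6.00 ± 0.17 were not called. Jchain, the joining chain of secreted immunoglobulins, was at 7.96, 8.14, 9.96 and 6.96, also highest on array 3 and lowest on array 4. Plasma cell list means were 6.51, 6.46, 6.73 and 6.25. T cell markers were called in 9 of 10 cases, with Lat at 10.03 ± 0.12, Cd3e at 8.91 ± 0.22, Cd3g at 8.77 ± 0.50 and Cd3d at 8.32 ± 0.44, and Themis at 6.15 ± 0.30 was not. Cd3g was highest on array 3, at 9.51 against at most 8.59 elsewhere, and T cell list means were 7.82, 7.82, 8.09 and 7.83.

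Myeloid cells are known to be rich in many of these proteases. Monocyte and macrophage markers were called in 2 of 13 cases, Lyz2 at 8.22 ± 0.73 and Cd68 at 6.94 ± 0.46. At an unadjusted detection p below 0.05 there were 5 of the 13. Csf1r at 5.29, C1qa at 5.16 and Mertk at 4.62 were not called, nor was C1qc at 6.10 ± 0.37, highest on array 1 at 6.57. The list means were 5.91, 5.83, 5.90 and 5.64 on arrays 1 to 4. Adgre1, which encodes F4/80, was not called at 6.32 ± 0.46, but was at 7.003 on array 3 against 6.03 to 6.15 on the others. Its adjusted detection p was 0.0521, and it was called by limma's test (adjusted p 0.0249), by the 95th percentile on every array and when array 1, 2 or 4 was left out. C1qb at 6.27 ± 0.60 was not called either, except without array 2 or array 4, and was highest on array 1. Of 12 dendritic cell markers 6 were called, including Ccr7 at 9.06 ± 0.26 and Batf3 at 8.94 ± 0.19, both known outside dendritic cells, Fscn1 at 7.33 ± 0.71 and Ccl17 at 7.12 ± 0.49. Also called were Zbtb46 at 6.47 ± 0.07 (adjusted detection p 0.0436) and Ccl22 at 6.54 ± 0.65 (adjusted detection p 0.0411), the latter highest on array 3 at 7.20. The test did not call Siglech at 5.90 ± 0.08, Flt3 at 6.26 ± 0.16, Itgax at 4.83, Xcr1 at 4.63 or Clec9a at 3.92, and list means were 6.23, 6.497, 6.51 and 6.21. Of 10 neutrophil markers 0 were called by the detection test, with 1 at an unadjusted p below 0.05 and 0 by limma, and Elane was at 5.87 ± 0.08 and Camp at 5.74 ± 0.10. Csf1r, C1qa, C1qc, Mertk, Zbtb46, Ccl22, Itgax, Xcr1 and Clec9a were chosen for naming after their values were seen. The part of any of these cells in the members' levels was not tested.

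The rest of the cathepsin family was split by gene. Of 7 other cathepsins, 5 were above background, 3 of them above the organ controls. Ctsa, a serine carboxypeptidase that also protects lysosomal glycosidases, was at 9.37 ± 0.23, and Ctse, an aspartic protease of endosomes, at 8.75 ± 0.17. Ctsw, known from NK and cytotoxic T cells, was at 8.69 ± 0.14, Ctso at 7.64 ± 0.13 and Ctsf, which can also process the invariant chain, at 7.29 ± 0.17. Ctsk, the collagen-degrading cathepsin of osteoclasts, was at 5.41 ± 0.07 and Ctsg, a serine protease of neutrophil granules, at 4.99 ± 0.09, and neither was called. The placental cathepsins, close relatives of Ctsl, were called in 0 of 6 cases by the detection test, with 0 at an unadjusted p below 0.05 and 0 by limma. Their median level was 4.35, and Ctsr at 4.82 ± 0.02 and Ctsj at 4.47 ± 0.09 were the highest.

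Inhibitors other than Cst3 were called in 5 of 14 cases, with a median level of 5.65. Serpinb1a, an inhibitor of neutrophil-type serine proteases, was at 9.94 ± 0.26, Cstb, the cytosolic inhibitor stefin B, at 9.57 ± 0.40, Serpinb6b at 8.76 ± 0.22 and Serpinb9, the granzyme B inhibitor, at 6.88 ± 0.14. Serpinb6a at 6.17 ± 0.15 and Cst11 at 5.90 ± 0.04 were not called. Cstb was also highest on array 3, at 10.12 against 9.17, 9.53 and 9.45 on arrays 1, 2 and 4. Stfa3, a stefin named here after its values were seen, was not called over the 4 arrays, but was at 8.25 on array 3 against 4.61, 4.47 and 4.27 on arrays 1, 2 and 4.

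Lysosomal enzymes that do not cut proteins for presentation gave a wider view. Of 21 other lysosomal hydrolases and cofactors, 18 were above background, 7 of them above the organ controls, with a median level of 7.35. Psap, which encodes the saposin precursor, was at 9.85 ± 0.10, Man2b1, a mannosidase, at 8.92 ± 0.26, Tpp1, a tripeptidyl peptidase, at 8.55 ± 0.08 and Fuca1, a fucosidase, at 8.52 ± 0.27. Gla at 6.14 ± 0.03 and Dpp7 at 5.81 ± 0.18 were not called. On array 3, 10 of the 21 had their highest value. In 3, named after their values were seen, the gap to each other array was over 0.5 log2 units: Acp5, the tartrate-resistant acid phosphatase, at 8.72 against at most 7.72, Lipa, the acid lipase, at 8.19 against at most 6.95, and Scpep1, a serine carboxypeptidase, at 9.04 against at most 8.22.

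Genes that sort or regulate lysosomal enzymes were called in 11 of 12 cases, 4 of them above the organ controls. The lysosomal membrane protein genes Lamp1 at 10.65 ± 0.05 and Cd63 at 9.23 ± 0.36 were among them, with Scarb2, the sorting receptor of glucocerebrosidase, at 8.40 ± 0.24, and Gnptg, which helps to make the mannose 6-phosphate tag, at 8.29 ± 0.29. Mitf, a relative of the lysosomal regulator TFEB, was at 5.67 ± 0.10 and not called. Lamp1 spanned 10.61 to 10.72, and 0 of the 12 genes had a gap above 0.5 log2 units on array 3.

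**Figure D4:**
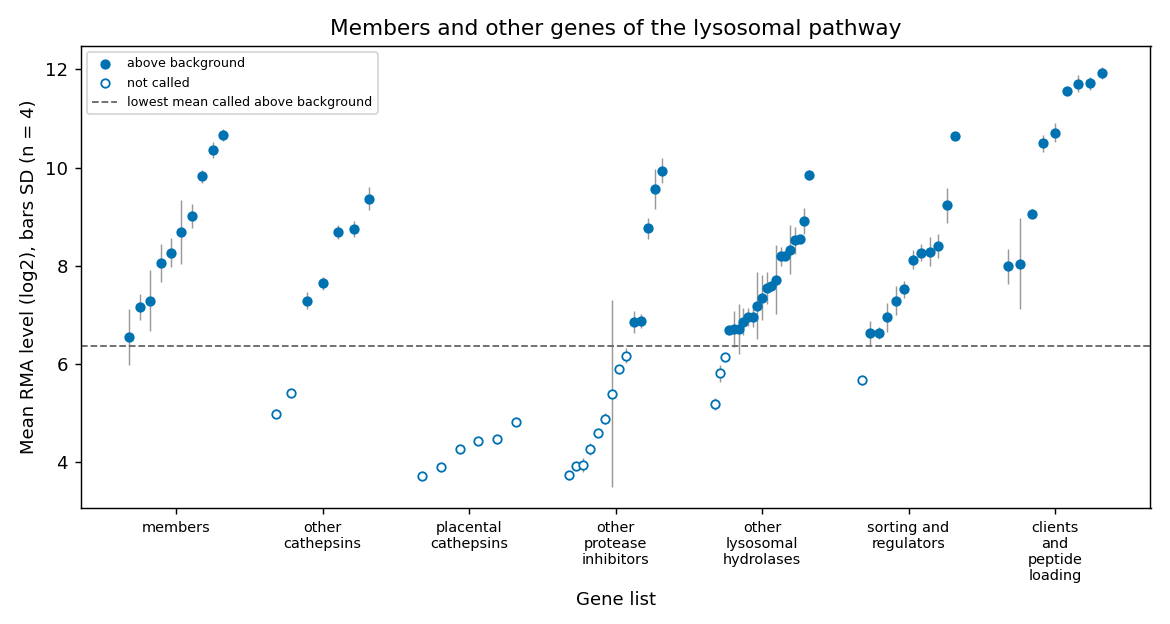
Mean RMA level (log2) with SD bars (n = 4) for each measured gene of the member list and of 6 related lists, filled where called above background. All 10 members are filled and the 6 placental cathepsins are open; the inhibitor with the very long bar is Stfa3, which was high on array 3 alone.

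The molecules on which these proteases act were measured on the same arrays. Clients and peptide loading genes were called in 9 of 9 cases, with Cd74, the invariant chain, at 11.93 ± 0.12, H2-Ab1 at 11.71 ± 0.13, H2-Aa at 11.71 ± 0.17, H2-Eb1 at 10.71 ± 0.20, H2-Oa at 10.49 ± 0.18, H2-DMa at 9.06 ± 0.09, H2-Ob at 8.04 ± 0.92 and Ciita at 7.99 ± 0.36. Sppl2a, the membrane protease that removes the last stub of the invariant chain after the cathepsins, was at 11.56 ± 0.04, between 11.52 and 11.61 on the 4 arrays. Of these 9 genes 1, H2-Ob, was highest on array 3, as Ctss, Ctsh, Lgmn and Ifi30 were. Cd74 was highest on array 2, at 12.04, and lowest on array 4, at 11.77.

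The genes most like the 2 most variable members over the arrays were found by the root mean square difference of centred log2 values over 4 arrays, among 9202 genes above background. For Ifi30 these were Ap1s3, a subunit of a clathrin adaptor, with a difference of 0.0617, A630089N07Rik with 0.0677 and Ifi214, an interferon-inducible gene, with 0.0879. Ap1s3 was at 7.06, 7.08, 8.40 and 6.93 on arrays 1 to 4 and Ifi214 at 6.21, 6.26, 7.75 and 6.24. Ifi214 was not called without array 3, with an adjusted detection p of 0.0575. For Ctsh they were Mrrf, a mitochondrial ribosome recycling factor, with a difference of 0.0558, Fam222b with 0.0648 and Asah1, the lysosomal acid ceramidase, with 0.0977. Asah1 was at 6.90, 6.60, 7.29 and 6.07. Within a difference of 0.2 there were 30 genes for Ifi30 and 36 for Ctsh, so over 4 arrays many genes lay close to either.

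Promoter sequences were taken from RefSeq (build GRCm38.p6), in which 8 of the 10 members matched by symbol, all but Ctsb and Ctsh, with 2 start sites for Lgmn. The 250 bases before each start were searched on both strands for the E-box CACGTG, which TFEB and its relatives bind, and for the longer palindromic lysosomal (CLEAR) element that contains it. CACGTG was in windows of 4 of the 8 genes (Ctsd, Ifi30, Lgmn at its inner start and Ctsl), against 6.02% of 32851 promoter windows and 8.496% of those of genes above background. The CLEAR element was in 0 of the 8, against 0.240% of all windows and 0.563% of those of genes above background. The form TCACGTGA, searched after the sequences had been seen, was in the windows of Ctsd and Ifi30, against 0.785% of all windows and 1.60% of those of genes above background. Members are counted by gene, with a match at any start, over 9 windows, whereas the shares are counted by window. Lgmn had its match in 1 of its 2 windows, and that window and the Ctsl window each lie within the annotated gene. A match describes these letters only and shows no binding.

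Windows are printed for Ctsd, the member with the narrowest range and 2 matches, and for Ifi30 and Lgmn, the pair that was high on array 3. They are given 5′ to 3′ in the direction of the gene and with CACGTG in capitals. A link between the levels and these sequences was not tested. The Ctsd window is chr7:142387828-142388077 on the minus strand, with matches that begin 245 and 98 bases before the start. The Ifi30 window is chr8:70766664-70766913 on the minus strand, with 1 match 196 bases before the start. The Lgmn window, of the outer start, is chr12:102439729-102439978 on the minus strand and has no match.
Ctsd: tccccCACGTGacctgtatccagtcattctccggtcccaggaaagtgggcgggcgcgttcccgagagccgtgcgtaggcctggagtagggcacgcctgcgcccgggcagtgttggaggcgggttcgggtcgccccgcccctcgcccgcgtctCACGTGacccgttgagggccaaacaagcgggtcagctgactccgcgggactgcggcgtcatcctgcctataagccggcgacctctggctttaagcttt
Ifi30: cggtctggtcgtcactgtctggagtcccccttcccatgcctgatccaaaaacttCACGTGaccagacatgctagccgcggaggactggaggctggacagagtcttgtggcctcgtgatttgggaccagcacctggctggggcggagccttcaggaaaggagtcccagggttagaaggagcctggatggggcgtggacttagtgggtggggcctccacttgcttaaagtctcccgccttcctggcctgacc
Lgmn: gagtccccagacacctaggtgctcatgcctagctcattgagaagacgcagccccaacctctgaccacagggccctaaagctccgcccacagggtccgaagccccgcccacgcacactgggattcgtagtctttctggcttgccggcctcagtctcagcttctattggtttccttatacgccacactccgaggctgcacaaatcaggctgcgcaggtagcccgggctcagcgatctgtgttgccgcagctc
The window of the inner Lgmn start, which is not printed, has 1 match 49 bases before that start, and like the Ctsl window it lies within the annotated gene.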

How the data were processed

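Gene expression was measured on 4 arrays of 1 group. The log2 levels per probe set were made by the authors with RMA, per the submitters' processing notes; the version, software and genome build were not given in the sources used here. RMA normalizes arrays to each other, so a shift common to all genes is not visible, and scanner files were not used here. Of 35556 probe sets, 21789 carried 1 gene symbol in GEO's platform annotation, 1621 carried several and stayed unnamed, and 12146 had no entry in it. Symbols were updated through the Entrez identifier to RefSeq names (GRCm38.p6) for 21698. For the 999 genes with several probe sets the highest mean was used.

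The detection p was the share of background genes whose mean reached that of the gene, with 1 added to both counts. It could not fall below 0.000805, and 27 of the 1241 background genes were called. Of the 15 organ controls measured, 6 were called by the detection test. Calculations were tested on simulated data. Alternatives used limma 3.58.1 in R 4.3.3 and Python 3.11.15. Where p-values use the spread over arrays, that spread may be technical. The members and all gene lists were chosen with earlier results of these data known. The text names all members, all genes of the lists of other cathepsins and of clients and peptide loading, and of each other list up to 4 called genes and up to 2 not called, by the highest mean. Of the organ controls the rule takes the highest, Mbp, and the lowest, Alb, which was at 4.45 ± 0.03 and not called. For the 2 members with the largest SD it takes the 3 most alike genes. Genes said to be named after their values were seen are outside this rule. Protein sequences were not used here.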

Additional observations from a re-analysis of the deposited data

Results flagged for a closer look

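The 83 genes taken by the naming rule above were examined. In 10 of them 1 array lay far from the other 3, by the ratio of its gap to the whole range. The ratio was above Dixon's 95% limit for 4 samples, which chance gives in about 1 in 20 genes. Genes named after their values were seen were not examined, among them Stfa3, high on array 3 with a ratio of 0.914. In 7 of the 10 the array was array 3 and lay high: Ifi30 at 9.67, Psap at 10.002, Dpp7 at 6.07, Cd3g at 9.51, Adgre1 at 7.003, Ap1s3 at 8.40 and Ifi214 at 7.75. Ap1s3 and Ifi214 had been chosen for their likeness to Ifi30, so their place here follows from that choice. The gap was small for Psap, at 9.79 to 9.81 on the other arrays. On array 4, Ctse was low at 8.496 against 8.83 to 8.84, Gla was low at 6.10 against the same deposited value of 6.16 on each other array, which alone sets its ratio,, and Ctsk was high at 5.51 against 5.37 to 5.38. Lgmn came close to the limit, with a ratio of 0.824. Dpp7, Gla, Ctsk and Adgre1 were not called above background.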

How the results depend on the processing

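The count of members above background was 10 under each alternative but 1: the 95th percentile of the background genes, limma's test, olfactory receptors alone as background, the mean over probe sets, quantile normalization, median centring and the arrays without array 1, 2 or 4; it was 9 without array 3, where Lgmn was at 6.27. Beside these counts, 8835 of the 19938 named genes were called without array 3, 54.4% passed the percentile and 54.0% limma's test. Shares of all named genes under the other alternatives are not given here, nor are those above the organ controls when 1 array was left out. The adjusted detection p of Lgmn ranged from 0.0332 to 0.0533 over the alternatives, and was 0.0496 with olfactory receptors alone. Members above the organ controls numbered 5 to 7 when 1 array was left out (7 without array 4), 5 under the mean over probe sets, quantile normalization and median centring, and 7 without Mbp, an alternative added after the data were seen. The median SD of the members lay between 0.195 and 0.302 when 1 array was left out and between 0.263 and 0.275 under the other alternatives. The mean over probe sets could not move members, which have 1 probe set each. Of the other named genes, Ifi214 lost its call without array 3, at 6.24, and calls were gained by Adgre1 without array 1, 2 or 4 (adjusted detection p 0.0470, 0.0439 and 0.0495), C1qb without array 2 or 4 (0.0474 and 0.0422) and Sdc1 without array 2 (0.0439). The looser 95th percentile added 8 named genes and limma's test 7, none of them a member. Closeness to background limits Lgmn, which lay 0.76 log2 units above the 95th percentile of background on average, against 1.37 to 4.88 for the other members. No paired analysis was possible because there is only 1 group.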
